A study of Mus musculus with 10 samples.

Results

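The genes of MHC class II antigen presentation were examined in the distal colon of 10 Rag1-/- mice on the C57BL/6 background, a mouse model in which colitis follows T-cell transfer (TCT). The 6 inflamed mice had been injected with naïve T cells, and the labels grade 3 of their colons as severely and 3 as moderately inflamed. The 4 control mice had been injected with regulatory T cells (Tregs) and are labelled as not inflamed. All mice were injected at 10 weeks of age and killed 2 to 3 months later, at a stated age of 4 to 5 months. Because Rag1 is needed to assemble lymphocyte receptors, the hosts make no T or B cells of their own, and the only T cells are those injected, of a different kind in inflamed and control mice. The effect of inflammation and that of the injected cell type therefore cannot be told apart. Each array held RNA of 1 colon, and the values are log2 expression per probe set, so that a difference of 1 is a 2-fold change.

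MHC class II molecules carry peptides cut from proteins taken up by a cell and show them to CD4+ T cells. An α and a β chain are assembled on the invariant chain, Cd74, which is then cut away in endosomes by proteases such as cathepsin S, Ctss. H2-DM exchanges the last invariant chain fragment for other peptides, and H2-DO restrains H2-DM. Ciita is the coactivator that switches these genes on, and interferon γ induces it in many cells, including the intestinal epithelium. Dendritic cells, B cells and many macrophages carry class II without that signal.

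The 10 genes chosen were H2-Aa, H2-Ab1, H2-Eb1, H2-DMa, H2-DMb1, H2-Oa, H2-Ob, Cd74, Ciita and Ctss, each with every probe set annotated to that gene alone. Of these, 9 genes were measured by 17 probe sets, among 18193 genes and 34945 such probe sets in the series. H2-DMb1 had no value, since its 2 probe sets are also annotated to H2-DMb2. H2-Aa was measured by 4 probe sets, H2-Ab1 and Ciita by 3 each, H2-DMa by 2 and the other genes by 1. Probe sets of 1 gene read the same transcripts and are not independent. Where a single value per gene is given, it comes from the leading probe set, which had the highest average across the 10 arrays.

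Class II promoters are known for a shared X box and Y box upstream of the start site, and promoters are printed here because 7 of the 9 measured genes rose together. RefSeq promoters (GRCm38.p6) were at hand for 7 of the 10 genes, without H2-Ab1, Cd74 and Ciita. Simple letter patterns, set after the promoters had been read, stood for the X box core (AACNNNTGA) and the Y box (ATTGG), each searched on both strands over 300 bases. The X pattern was found in 11.9% and the Y pattern in 37.4% of all 32851 promoters, whereas an X pattern followed by a Y pattern 25 to 45 bases downstream on the gene's strand was found in 0.158%. That ordered pair occurred in H2-Eb1, H2-Ob and H2-DMb1 among the 10 genes, and in H2-DMb2. It thus occurred in H2-Ob, whose rise did not pass the test below, and not in H2-Aa, H2-Oa and H2-DMa, which rose. H2-Aa, H2-Oa and H2-DMa held the Y pattern without the X pattern, in H2-DMa at 198 bases before a start site, and Ctss held neither. A match describes these letters and is not a measured site, and a missing match does not show that a box is absent. The 120 bases before the start site are given 5′ to 3′ on the gene's strand for H2-Eb1 (chr17:34305747-34305866, plus strand), H2-Ob (chr17:34238785-34238904, plus strand) and H2-Aa (chr17:34287824-34287943, minus strand), with X and Y patterns in capitals, Y also in its reverse form CCAAT.
H2-Eb1: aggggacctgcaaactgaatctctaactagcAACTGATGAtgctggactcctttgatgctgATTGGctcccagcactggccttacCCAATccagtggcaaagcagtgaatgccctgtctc
H2-Ob: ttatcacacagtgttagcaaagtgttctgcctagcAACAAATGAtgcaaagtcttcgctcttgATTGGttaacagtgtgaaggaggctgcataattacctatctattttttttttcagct
H2-Aa: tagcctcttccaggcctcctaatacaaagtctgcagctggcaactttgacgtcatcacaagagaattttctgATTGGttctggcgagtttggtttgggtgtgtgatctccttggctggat

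Class II genes were far higher in inflamed than in control colon. Of the 17 probe sets, 15 were higher, 0 were lower and 2 did not pass the test (limma, Benjamini-Hochberg over all 34945 probe sets, two-sided, threshold 0.05), where 16.5% of all probe sets were higher and 19.4% were lower. All 15 rose at least 2-fold, as 2.72% of all probe sets did, and in all 15 every inflamed colon lay above every control, as in 12.9% of all probe sets. By gene, 7 of 9 rose, against 18.1% of all genes. The median log2 difference of the 17 probe sets was 3.13, against 0.03 over all probe sets. The genes that rose were both chains of I-A, the β chain of I-E, the invariant chain, H2-DMa, H2-Oa and Ciita; H2-Ob and Ctss did not pass the test. In whole tissue, more cells of a type and more RNA per cell cannot be told apart.

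**Figure D1:**
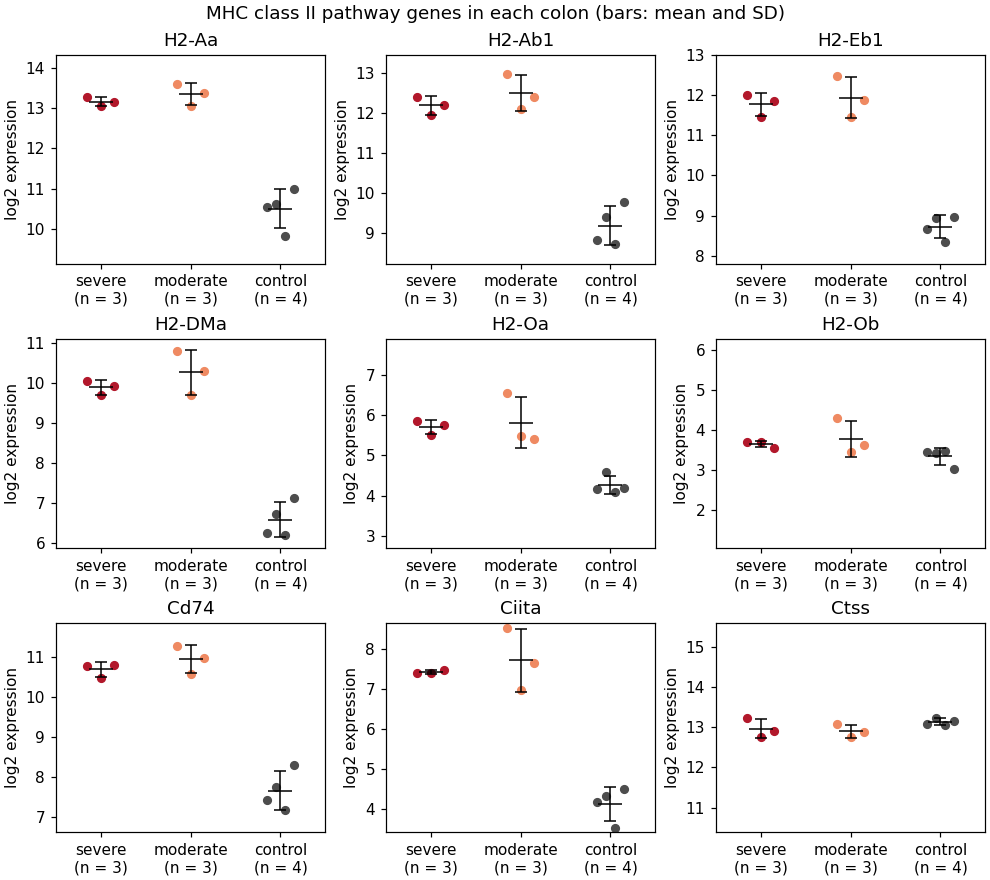
Log2 expression of the 9 measured genes in each colon, with severe, moderate and control groups from left to right (points are colons, bars the mean and SD of 3, 3 and 4 colons, and every panel spans the same log2 range). Inflamed and control colons are apart in 7 panels and overlap for H2-Ob and Ctss.

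The α and β chains of I-A, the class II molecule that C57BL/6 mice display, are encoded by H2-Aa and H2-Ab1. H2-Aa (probe set 1435290_x_at) ranged from 13.05 to 13.62 in the 6 inflamed colons, with a median of 13.22, against 10.54, 10.63, 9.83 and 10.99 in the 4 control colons. No inflamed value overlapped a control value, and control replicate 3 was the lowest. H2-Aa averaged 13.26 ± 0.22 (SD, n = 6) in inflamed and 10.50 ± 0.49 (SD, n = 4) in control colon, a log2 difference of 2.76 (standard error 0.19, 6.78-fold, limma adjusted p = 1.43e-06). Its 3 other probe sets differed by 3.06, 3.54 and 3.84, with the larger difference at the dimmer probe set in each case. The inflamed values of 1435290_x_at lie near the top of the arrays, whose highest values were 14.4 to 14.6.

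H2-Ab1 (1450648_s_at) ranged from 11.95 to 12.97 in inflamed colon, with a median of 12.30, against 8.84, 9.40, 8.74 and 9.76 in control colon. The groups were separated by more than 2 on the log2 scale. The means were 12.33 ± 0.36 in inflamed and 9.19 ± 0.48 in control colon, a difference of 3.15 (standard error 0.22, 8.86-fold, limma adjusted p = 1.83e-06), and the other probe sets of H2-Ab1 gave 3.52 and 3.33.

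H2-Eb1 encodes the β chain of I-E, whose α chain gene H2-Ea is defective in C57BL/6 mice, so that I-E is not displayed there. H2-Eb1 (1417025_at) ranged from 11.45 to 12.47 in inflamed colon, with a median of 11.87, against 8.67, 8.94, 8.34 and 8.97 in control colon. The 2 groups did not overlap, and the difference was 3.13 (standard error 0.19, 8.73-fold, limma adjusted p = 9.11e-07). H2-Ea differed by -0.12 at its brightest probe set, 7.43 ± 0.14 in inflamed and 7.55 ± 0.09 in control colon (limma adjusted p = 0.298), and its 2 other probe sets did not pass the test.

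The invariant chain Cd74, a chaperone that also guides class II to endosomes, ranged from 10.48 to 11.27 in inflamed colon (1425519_a_at), with a median of 10.79, against 7.44, 7.75, 7.18 and 8.31 in control colon. All 6 inflamed values were above the highest control, replicate 4. The difference was 3.14 (standard error 0.20, 8.84-fold, limma adjusted p = 1.04e-06).

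By leading probe set, H2-DMa of the peptide editor rose more than H2-Oa of its inhibitor. At a dimmer H2-DMa probe set the rises were close, at 1.59 and 1.50. H2-DMa, a chain of the editor H2-DM, had the largest difference of the 9 genes by leading probe set. H2-DMa (1422527_at) ranged between 9.68 and 10.80 in inflamed colon, with a median of 9.99, against 6.27, 6.74, 6.21 and 7.13 in control colon. The groups did not overlap, and the difference was 3.48 (standard error 0.23, 11.2-fold, limma adjusted p = 1.19e-06); a dimmer probe set of H2-DMa gave 1.59. H2-DMb2, which encodes an alternative β chain of H2-DM, rose by 1.96 at its brightest probe set (limma adjusted p = 0.00054). Its other probe sets gave 1.58 and 1.18.

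H2-Oa, the α chain of the H2-DM inhibitor H2-DO, ranged from 5.41 to 6.55 in inflamed colon (1419297_at), with a median of 5.64, against 4.17, 4.58, 4.09 and 4.19 in control colon. The 2 groups did not overlap, and moderate replicate 1 was the highest. H2-Oa rose by 1.50 (standard error 0.20, 2.84-fold, limma adjusted p = 9.01e-05). Its control mean, 4.26, lay close to the lower quartile of probe set means, 4.19. The β chain gene H2-Ob (1440837_at) ranged from 3.44 to 4.28 in inflamed colon, with a median of 3.65, against 3.45, 3.42, 3.48 and 3.03 in control colon. These values overlap, and the mean of H2-Ob over all arrays, 3.57, lies below the lower quartile of probe set means, 4.19. Its difference of 0.37 (standard error 0.15) did not pass the test (limma adjusted p = 0.0737), and 3 of 20 alternatives brought it past the threshold.

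Ciita, the coactivator of class II transcription, ranged from 6.97 to 8.52 in inflamed colon (1421211_a_at), with a median of 7.43, against 4.19, 4.33, 3.53 and 4.50 in control colon. The lowest inflamed value was over 2 above the highest control on the log2 scale. Ciita rose by 3.43 (standard error 0.26, 10.7-fold, limma adjusted p = 2.97e-06), and its other probe sets gave 2.12 and 2.71. Its control mean, 4.13, lay just below the lower quartile of probe set means, 4.19. The probe set that gave 2.71 was at 3.77 in control colon.

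Ctss, the endosomal protease that trims the invariant chain in many antigen-presenting cells, did not share the rise. Ctss (1448591_at) ranged from 12.76 to 13.22 in inflamed colon, with a median of 12.88, against 13.08, 13.24, 13.05 and 13.16 in control colon. The groups overlapped, and severe replicate 1 was the only inflamed colon above the control mean of 13.13. The difference of -0.20 (95% confidence interval -0.41 to 0.01, limma adjusted p = 0.135) did not pass the test, and these levels lie near the top of the arrays, whose highest values were 14.4 to 14.6.

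**Figure D2:**
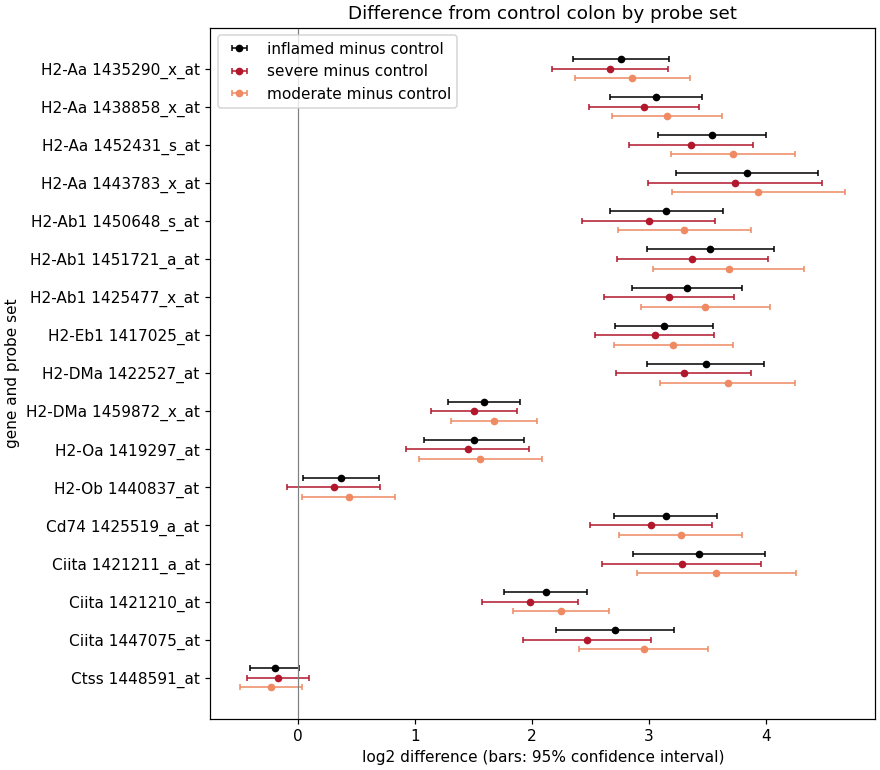
Log2 difference from control colon for each of the 17 probe sets, for the 6 inflamed colons together and for the severe and moderate groups of 3 (points are differences, bars the 95% confidence interval). Inflamed colons differ by 1.50 to 3.84 at 15 probe sets, while over the 3 comparisons H2-Ob lies at 0.31 to 0.43 and Ctss at -0.23 to -0.17.

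Among all 18193 genes ordered by their rise in inflamed colon, H2-DMa was placed 52, Ciita 54, H2-Ab1 68, Cd74 70, H2-Eb1 71 and H2-Aa 107. H2-Oa came at 382, H2-Ob at 2345 and Ctss at 13615.

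Both inflamed groups showed the rises. Against control, 15 of 17 probe sets were higher and 0 lower in severe colons, where 14.2% of all probe sets were higher and 16.9% lower (limma, adjusted over all probe sets). In moderate colons 15 of 17 were higher and 0 lower, where 11.6% of all probe sets were higher and 15.1% lower. All 15 were at least 2-fold higher in each group, as 3.07% of all probe sets were in severe and 2.35% in moderate colons, and did not overlap with control, as for 19.8% of all probe sets in severe and 17.0% in moderate colons. The median log2 difference was 3.00 for severe and 3.21 for moderate colons. These comparisons share the control colons. Between severe and moderate colons, limma called 0 of the 17 probe sets at an adjusted p under 0.05 and 0 at an unadjusted p under 0.05, where 0% and 5.12% of all probe sets were called. The severe values were the lower in 16 of 17 probe sets, against 17643 of all 34945. The differences of the 17 ran from -0.48 to 0.06 with a median of -0.25, against -0.00139 over all probe sets.

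That ordering rests on 1 animal. Moderate replicate 1 was the highest of the 6 inflamed colons in 16 of the 17 probe sets, whereas it was highest in 17.6% of all probe sets, and without it the severe values were lower in 11 of 17, with a median difference of -0.02. The same colon had the highest mean level of the conventional dendritic cell markers, 5.96 against at most 5.71 in the other inflamed colons, and was highest in 6 of the 8 markers measured. It was also the highest for smooth muscle markers, at 11.02 against at most 10.89, and for B cell markers, at 4.77 against at most 4.61. These hosts make no B cells of their own. Moderate replicate 1 was not the highest for T cell markers, at 6.87 against up to 6.90, or for macrophage and monocyte markers, at 8.48 against up to 9.15. It was the lowest inflamed colon for neutrophil markers, at 6.52 against up to 9.08. The part of any of these cells in its class II level was not tested. In the controls, replicate 3 was the lowest in 13 of 17 probe sets (23.2% of all probe sets) and replicate 4 the highest in 11 (21.4%).

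**Figure D3:**
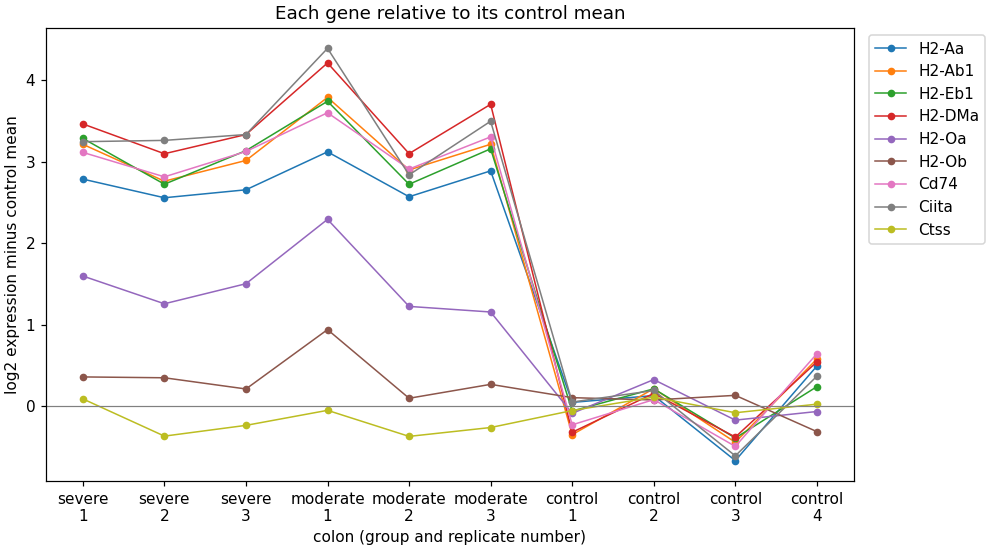
Log2 expression of each of the 9 genes relative to its own control mean, across the 10 colons with severe, moderate and control colons from left to right. Lines join the leading probe set of each gene, moderate replicate 1 is the highest inflamed colon for 8 of the 9 genes, and H2-Ob and Ctss are the lowest lines in the inflamed colons.

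The change of each gene was set against that of Ptprc (CD45, the surface phosphatase of nearly all leukocytes). The test was an exact permutation test over all 210 splits of 4 against 6 arrays, two-sided and adjusted over 14 pairs. The smallest p it can give is 0.00476. It asks whether 2 changes differ. It does not measure how much of a rise was shared with leukocytes, since 2 transcripts can change alike in different cells. Ptprc was 10.45 ± 0.47 in inflamed and 7.43 ± 0.27 in control colon, a difference of 3.02. H2-Aa changed by 0.26 less than Ptprc (exact adjusted p = 0.485), H2-Ab1 by 0.12, H2-Eb1 by 0.10 and Cd74 by 0.12 more (exact adjusted p = 0.70 each), and H2-DMa by 0.46 and Ciita by 0.40 more (exact adjusted p = 0.259 and 0.313), so that with leading probe sets none of these 6 differed detectably from Ptprc. With the mean over the probe sets of a gene, which adds a dim Ptprc probe set, all 6 changed more than Ptprc: H2-Aa by 1.36, H2-Ab1 by 1.39, H2-Eb1 by 1.19, Cd74 by 1.20, H2-DMa by 0.60 and Ciita by 0.81 (exact adjusted p = 0.00667 to 0.019). H2-Eb1 and Cd74 have 1 probe set each, so their shift came only from that Ptprc probe set, at 3.32 in control colon with a rise of 0.85. Its mean over all arrays, 3.84, lies below the lower quartile of probe set means, 4.19. The larger changes under this setting are therefore not read as a greater rise than that of Ptprc. H2-Oa, like Ciita dim in control colon, changed by 1.52 less than Ptprc (exact adjusted p = 0.00952), or by 0.44 less with the mean over probe sets (exact adjusted p = 0.0121). The pairs with H2-Ob, a dim probe set, and with Ctss, near the top of the arrays, are not read as unequal change of the transcripts. The leading H2-Aa probe set also lay near the top of the arrays in inflamed colon, which limits its pairs here and below.

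Between the genes themselves, the size of the change also moved with the probe set. H2-Aa changed by 1.26 more than H2-Oa (exact adjusted p = 0.00952), and by 1.79 more with the mean over probe sets. H2-DMa changed by 1.98 more than H2-Oa (exact adjusted p = 0.00952), but by 1.03 with the mean over probe sets, and the dimmer H2-DMa probe set, at 4.37 in control colon where H2-Oa was at 4.26, differed by 1.59 against 1.50 for H2-Oa. Ciita changed by 0.66 more than H2-Aa by leading probe sets (exact adjusted p = 0.0167), whereas with the mean over probe sets it changed by -0.55 relative to H2-Aa (exact adjusted p = 0.0167), so the order of Ciita and H2-Aa is not settled.

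Outside the 10 genes chosen, the 5 genes whose control-centred profile lay nearest to the mean of H2-Aa, H2-Ab1, H2-Eb1 and Cd74 over the 10 arrays were Prdm1 (root mean square distance 0.262 on the log2 scale), Nckap5 (0.265), Cxcl11 (0.322), Gbp6 (0.334) and Nkg7 (0.365). Prdm1 is a transcriptional repressor, Cxcl11 a chemokine, Gbp6 a guanylate-binding protein and Nkg7 a protein of cytotoxic granules. Cd74 lay at 0.106, but it is part of that mean, so its distance is small in part by construction. Of the members outside the mean, H2-DMa lay at 0.359, Ciita at 0.364, H2-Oa at 1.22, H2-Ob at 2.10 and Ctss at 2.53. The profiles were not scaled, so the distance also counts the size of the rise.

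Around the pathway, the response upstream of Ciita was uneven. Of 8 measured genes between interferon γ and Ciita, 4 were higher, 1 was lower and 3 missed the threshold, with 18.1% of all genes higher and 20.9% lower. Ifng, the cytokine gene, was 7.48 ± 0.49 in inflamed and 3.75 ± 0.12 in control colon, a rise of 3.73 (limma adjusted p = 6.11e-07). Socs1, a feedback inhibitor of the pathway, rose by 2.73 and Irf1, an interferon-induced transcription factor, rose by 1.09. Jak1, a receptor kinase, was the 1 gene that fell, by 0.36 (limma adjusted p = 0.00771).

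Of 7 genes of the complex that binds class II promoters, with 18.1% of all genes higher and 20.9% lower, Nfya, a subunit of the Y box factor, rose by 0.37 (limma adjusted p = 0.00921), Rfxank, a subunit of the X box factor, fell by 0.67 (limma adjusted p = 0.0096), and 5 did not pass the test. Of 13 genes of endosomal processing, 6 were higher, 3 were lower and 4 missed the threshold, against the same shares of all genes. Marchf1, a ubiquitin ligase that removes class II from the surface, was 6.22 ± 0.58 in inflamed and 3.98 ± 0.03 in control colon, a rise of 2.24 (limma adjusted p = 2.53e-05). Ctsc, a lysosomal protease, rose by 1.43, while the proteases Ctse and Ctsl fell by 1.44 and 0.69. H2-Eb2, a class II β chain gene next to H2-Eb1, rose by 0.31 (limma adjusted p = 0.0196).

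**Figure D4:**
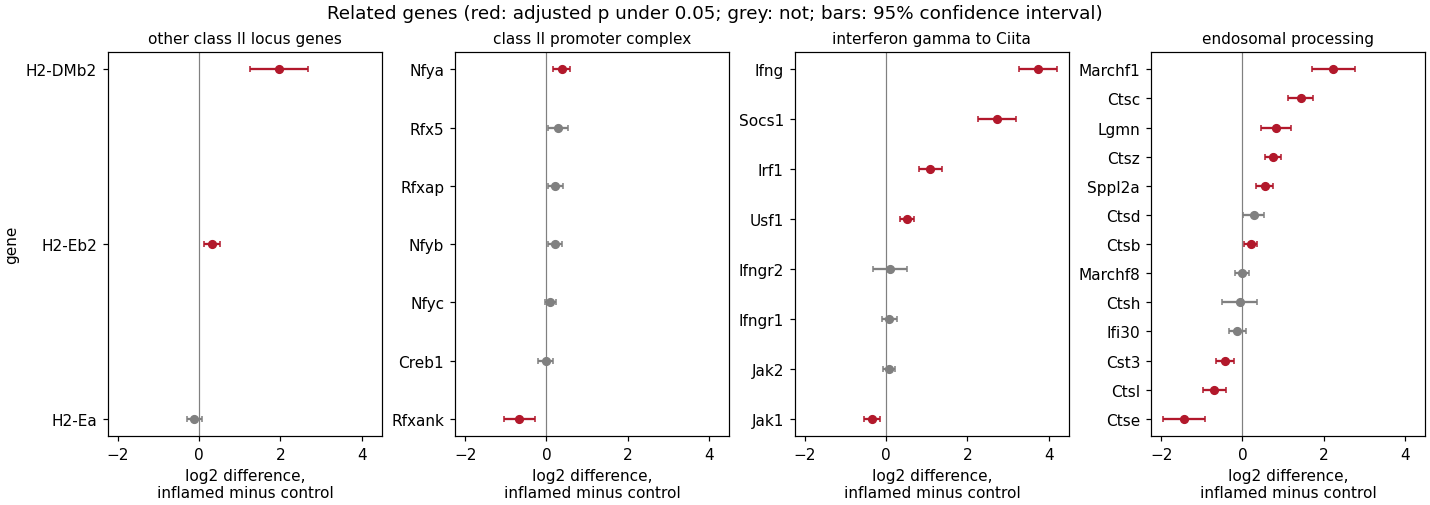
Log2 difference between inflamed and control colon (x axis) for related genes in 4 lists, in red where the adjusted p is under 0.05 and in grey where it is not, with bars for the 95% confidence interval. Ifng and Socs1 rose most in the interferon panel, 5 of the 7 promoter factors did not pass the test, and Marchf1 rose most in the endosomal panel.

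Markers of leukocytes and of other cells of the colon moved unequally, where 18.1% of all genes were higher and 20.9% lower. All 8 measured T cell markers rose, Cd3g by 4.36 and Cd3d by 2.48. Of 10 macrophage and monocyte markers 8 rose, Lyz2 by 2.51 and Ccr2 by 2.36, and Mertk fell by 0.59; their mean level was 7.97 to 9.15 in inflamed and 7.28 to 7.43 in control colon. Of 8 conventional dendritic cell markers 4 rose, Itgax by 2.58 and Itgae by 2.14, with a mean level of 5.41 to 5.96 in inflamed and 4.64 to 4.86 in control colon, while Xcr1 lay below the lower quartile throughout. Itgax is also on macrophages and Itgae on intraepithelial T cells. Of 6 plasmacytoid dendritic cell markers Ly6d, which also marks other cells, rose by 4.24, Pacsin1 fell by 0.31 and 4 did not pass the test.

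Of 7 B cell markers 1, Cd22, rose, by 0.58, and the other 6 did not pass the test. The 7 markers had a mean level of 4.45 to 4.77 in inflamed and 4.29 to 4.43 in control colon. The hosts make no B cells of their own. The shares of all genes were again 18.1% higher and 20.9% lower. The epithelial list averaged 12.60 to 12.83 in inflamed and 12.56 to 12.66 in control colon, with 3 of 10 markers higher, Krt20 by 0.57 and Cldn7 by 0.27. Some of its markers lay near the top of the arrays, such as Krt8 at 14.31 and Epcam at 13.85 over all arrays. Neutrophil markers rose in 5 of 6, S100a8 by 7.66 and S100a9 by 6.34, smooth muscle markers fell in 6 of 6, Myh11 by 2.27 and Actg2 by 1.59, and endothelial markers fell in 4 of 6, Tek by 1.67 and Emcn by 1.59. The part of each cell type in the class II rise was not tested, and these arrays do not tell which cells held the RNA.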

How the data were processed

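Total RNA of snap-frozen distal colon, biotin-labelled with the Affymetrix 3'IVT assay, was measured on 10 arrays, 1 per mouse. The authors made the deposited log2 values with Affymetrix Expression Console and RMA, per the submitters' processing notes, which give no versions; RMA corrects background, gives all arrays 1 distribution and compresses large and small signals. Scan dates and detection calls were not used here. Probe sets with several genes (932) or none (9160) were left out. Array medians were 5.36 to 5.40, and r was 0.9893 to 0.9958 within and 0.9625 to 0.9834 between control and inflamed colons; the number of arrays limits precision.

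The tests used limma's lmFit and eBayes (version 3.58.1, under R 4.3.3), in a model of 2 groups for inflamed against control and of 3 groups for the other comparisons. Tests were checked on simulated data. The labels call the samples biological replicates, 1 mouse each. The genes, lists and the rule for naming genes were chosen with earlier results of these data known: all members, and of each list the 2 largest rises and falls past the threshold and the genes nearest in profile. Genes named outside it were chosen after their values were seen. Replicate numbers did not pair samples (r of deviations -0.098 to 0.272 over 9 same-numbered pairs). Alternatives covered the value per gene, filters, scaling, weights of arrays, the variance model, the design, a replicate block, the methods' t-test and leaving out each array. Plots used Python 3.11.15 and matplotlib 3.10.9.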

Additional observations from a re-analysis of the deposited data

Results flagged for a closer look

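In 34 groups tested, 4 values stood apart from the rest of their group by Dixon's criterion, which chance meets in about 1 of 20 groups. Moderate replicate 1 was the highest inflamed colon for the dimmer H2-DMa probe set, at 6.53, with the next colon at 5.97, and for H2-Ob, at 4.28, with the next at 3.70. Control replicate 4 was the lowest control for H2-Ob, at 3.03, with the next at 3.42. Control replicate 1 was the lowest control for 1 Ciita probe set (1447075_at), at 3.30, with the next at 3.91.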

How the results depend on the processing

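The number of probe sets higher in inflamed colon was 15 to 16 with each array left out, 15 in severe colons and 15 to 16 in moderate colons, and none was called between severe and moderate colons under any of the 21 alternatives. The number lower in inflamed colon was 0 to 1 with each array left out: without severe replicate 1, Ctss fell by 0.258 (adjusted p = 0.0334). H2-Ob passed with arrays centred on the median (0.40), with array weights (0.399) and without moderate replicate 2 (0.425 for inflamed and 0.603 for moderate colon). Of the 14 pairs of changes, 8 passed with each array left out, but 14 passed with the mean over the probe sets of a gene, where the sign turned for H2-Aa against Ptprc (1.36) and for Ciita against H2-Aa (-0.55). A dim Ptprc probe set that rose by 0.85 enters that mean; the cause of the Ciita turn was not tested. Under the replicate block, which the numbers do not justify, 15 probe sets were higher and H2-Ab1 differed by 3.34; no call changed. With each array left out, the severe minus moderate difference spanned 0 for H2-Eb1 (-0.40 to 0.11), the dimmer H2-DMa probe set (-0.360 to 0.0732), H2-Oa (-0.31 to 0.26), H2-Ob (-0.30 to 0.12), Ciita (-0.66 to 0.11) and Ctss (-0.0735 to 0.155). These signs turned without moderate replicate 1 in the first 5, also without severe replicate 2 for H2-Eb1, and without severe replicate 1 or moderate replicate 2 for Ctss, with an adjusted p of 0.95 or more each time. Dim probe sets such as H2-Ob limit what these arrays can show.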
